A study of Mus musculus with 4 samples.

Results

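Interferon-stimulated genes were followed in the livers of 4 wild-type mice, to see whether a day without food changed them. The members are a list of names put together with earlier results of these data in view: Isg15, Ifit1, Ifit2, Ifit3, Irf7, Usp18, Oasl2, Rsad2 and Ifi44. Of these 9 genes, 7 had a probe set of their own on the Affymetrix array, out of 12393 genes tested. Rsad2 had 3 probe sets and each of the others 1, so the members were read by 9 of 22626 probe sets. Isg15 was read only by a probe set that the annotation assigns to Isg15 and Gm9706 together, and its values are given apart from the counts. Ifi44 had no probe set under its name in the annotation used here, so it has no signal here and enters only the search of promoters.

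Total RNA was extracted from whole liver of C57/BL6 mice aged 1 month. The control group held 2 mice and the starved group 2 mice deprived of food for 24 h, and the titles call the arrays of a group biological replicates. No other treatment or allele is named in the treatment fields, and the feeding of the control mice is not described. The description field speaks instead of injected and not-injected mice, so the grouping follows the titles and the treatment field.

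Interferons are secreted proteins that warn cells of infection. Type I interferons bind a receptor shared by nearly all cells, whose JAK kinases phosphorylate STAT proteins, and the STATs join IRF9 to form a complex that binds a promoter sequence called the interferon-stimulated response element. The genes so induced include antiviral effectors, a transcription factor that amplifies the response (Irf7) and a brake on the receptor (Usp18). In liver, hepatocytes, Kupffer cells and endothelial cells can all respond, and in RNA from whole tissue fewer responding cells cannot be told apart from less RNA per cell.

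Values are RMA signals on the log2 scale, where 1 unit is a doubling, and each change subtracts the control mean from the starved mean. Signals of different probe sets are not compared with each other. All 9 measured hepatocyte markers read between 12.41 and 15.30 on every array, near the top of the scale. Pearson's r over probe sets, which are not independent replicates, was 0.992 between the control arrays and 0.994 between the starved arrays. The gap between the 3′ and 5′ Gapdh probe sets, which widens as RNA degrades, was widest for starved 1 (0.86) and narrowest for starved 2 (0.48), with the controls at 0.65 and 0.54. Acute phase genes stood apart on control 2, where the mean of 24 of them was 12.53, against 11.18 to 11.43 on the other arrays.

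No member passed the limma test of starved against control liver, with Benjamini-Hochberg adjustment over all genes. Few genes passed it, 8 of 12393, so a count of 0 does not show that the members were unchanged. The count past an adjusted p of 0.05 was 0 of 7, against 0.0646% of all genes tested, and 2 of 7 were past an unadjusted p of 0.05, against 11.3% of all genes. Those 2, Usp18 and Rsad2, were both higher in starved liver, a direction that 5.25% of all genes showed at that p. The median change was 0.18 over the members and 0.00307 over all genes, with 6 of 7 members above 0. Leaving out 1 array turned the direction of the members' median: it was -0.16 without starved 2, with 3 of 7 above 0, and 0.71 without starved 1. Each of these runs leaves a single starved array, so no count past a p-value is given for them here. The starved livers differed from each other: 6 of 7 members read higher on starved 2 than on starved 1. The p-values come from only 4 animals, and limma draws each gene's variance toward that of all genes. This shared part carried 3.71 of 5.71 degrees of freedom. An exact permutation test with 2 arrays a group cannot go below 0.333.

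**Figure D1:**
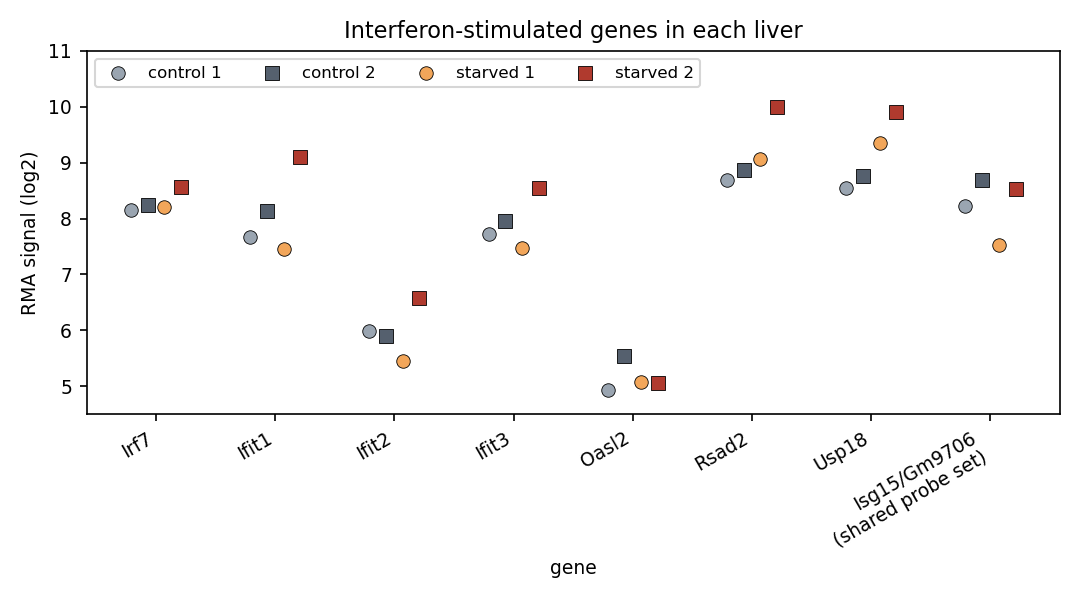
RMA signal (log2, vertical axis) of each interferon-stimulated gene and of the probe set shared by Isg15 and Gm9706 on each of the 4 arrays; each point is 1 mouse and no means are drawn. Starved 2 is the highest array for Ifit1, Ifit2, Ifit3, Irf7, Usp18 and Rsad2, while starved 1 is the lowest for Ifit1, Ifit2 and Ifit3 and above both controls for Usp18 and Rsad2.

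The Ifit genes encode cytoplasmic proteins with tetratricopeptide repeats that bind foreign RNA or the translation machinery. Their promoters are shown because these 3 genes gave the widest gap between the starved livers. The sequences are the 250 bases before the RefSeq start of each gene in build GRCm38.p6, all on the plus strand. Capitals mark matches to GAAANNGAAA, the core of the interferon-stimulated response element, searched on both strands. Windows lie at chr19:34640639-34640888 for Ifit1, chr19:34583279-34583528 for Ifit3 and chr19:34550444-34550693 for the first of the 2 listed starts of Ifit2.
Ifit1: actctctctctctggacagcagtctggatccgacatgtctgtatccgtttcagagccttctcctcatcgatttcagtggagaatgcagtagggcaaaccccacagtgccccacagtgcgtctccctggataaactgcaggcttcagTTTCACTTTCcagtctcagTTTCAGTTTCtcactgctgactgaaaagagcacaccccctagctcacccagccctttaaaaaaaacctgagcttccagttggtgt
Ifit3: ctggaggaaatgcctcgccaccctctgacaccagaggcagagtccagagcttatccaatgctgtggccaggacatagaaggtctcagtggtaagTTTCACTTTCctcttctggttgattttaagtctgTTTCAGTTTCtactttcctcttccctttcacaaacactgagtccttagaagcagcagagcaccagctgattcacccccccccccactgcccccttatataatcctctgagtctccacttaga
Ifit2: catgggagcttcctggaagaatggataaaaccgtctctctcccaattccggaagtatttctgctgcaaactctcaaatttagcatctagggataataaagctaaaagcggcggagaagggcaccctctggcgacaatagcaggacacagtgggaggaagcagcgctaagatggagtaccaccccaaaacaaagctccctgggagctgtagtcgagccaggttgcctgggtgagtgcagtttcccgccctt
Ifit1 and Ifit3 each held 2 matches, with the same pair of spellings, TTTCACTTTC farther from the start and TTTCAGTTTC nearer to it. The first bases of the matches lay 104 and 85 bases before the start in Ifit1, and 156 and 122 bases before it in Ifit3. Neither Ifit2 window held these letters. A window with at least 1 match made up 2.98% of all 32851 promoter windows, and one with 2 or more made up 0.18%. Over the 8 members with a promoter sequence, Ifi44 included, 4 of 9 windows held a match. These were the windows of Ifit1, Ifit3, Isg15 and Rsad2. The motif is not particular to the members: among other interferon pathway genes, listed below, 27.4% of windows held a match. The share was 28.6% for other type I response genes and 35.5% for interferon gamma and antigen presentation genes.

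Ifit1, which binds RNA lacking the methylation of a normal cap, read 7.67 and 8.13 on the control arrays, 7.45 on starved 1 and 9.10 on starved 2. Starved 1 lay below both controls and starved 2 above both. The change of 0.37 ± 0.52 (SE; limma, adjusted p = 0.853) was smaller than the spread of the starved pair, which was 8.27 ± 1.17 (SD, n = 2) against 7.90 ± 0.33 in the controls. Starved 2 was 3.13-fold above starved 1, and 0.169% of all genes had a larger absolute gap between these arrays.

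Ifit2, a relative linked to both antiviral defence and cell death, read 5.99 and 5.89 on the control arrays, 5.45 on starved 1 and 6.59 on starved 2. The controls lay close together, between the 2 starved livers. Its change was 0.07 ± 0.36 (SE), and the starved arrays were 2.21-fold apart. On all 4 arrays its signal was below the array's median, and no detection calls were used, so it is given as a low signal.

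Ifit3, which stabilises Ifit1 and bridges antiviral signalling proteins, read 7.71 and 7.95 on the control arrays, 7.48 on starved 1 and 8.54 on starved 2. The groups overlapped, again with starved 1 lowest and starved 2 highest. Its change was 0.18 ± 0.34 (SE), with a gap of 2.09-fold between the starved arrays. The mouse genome holds a near-identical copy, Ifit3b, and which of the copies gave this signal was not tested. For these 3 genes the sign of the change depends on 1 array: without starved 2 it was -0.45 for Ifit1, -0.50 for Ifit2 and -0.35 for Ifit3.

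Rsad2 encodes viperin, a radical SAM enzyme that makes a chain-terminating nucleotide against viral polymerases. Its promoter is shown beside those of the Ifit genes because it holds the same motif, while its values differ from theirs in that both starved livers read above the controls. It lies at chr12:26456453-26456702 on the minus strand and is printed 5′ to 3′ along the gene, with the same motif in capitals.
Rsad2: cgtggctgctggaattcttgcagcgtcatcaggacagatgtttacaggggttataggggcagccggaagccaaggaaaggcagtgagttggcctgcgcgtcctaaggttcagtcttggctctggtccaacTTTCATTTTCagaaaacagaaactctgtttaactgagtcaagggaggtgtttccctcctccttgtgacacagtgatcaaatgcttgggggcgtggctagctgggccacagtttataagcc
Its single match began 120 bases before the start. The probe set that represents Rsad2 read 8.69 and 8.86 on the control arrays, 9.06 on starved 1 and 9.99 on starved 2. Both starved livers lay above both controls, starved 1 by a small margin. The starved mean was 9.52 ± 0.66 (SD, n = 2) and the control mean 8.77 ± 0.13, a change of 0.75 ± 0.30 (SE) or 1.68-fold that did not pass the test (limma, adjusted p = 0.442). It was 0.29 without starved 2 and 1.21 without starved 1. The other 2 probe sets gave changes of 0.92 and 0.75, each with both starved arrays above both controls. All 3 probe sets placed starved 2 above starved 1, by 0.84 to 0.93.

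Oasl2, an oligoadenylate synthetase-like protein with ubiquitin-like domains, read 4.94 and 5.55 on the control arrays, 5.08 on starved 1 and 5.07 on starved 2. It differed from the other members in that the starved livers were level, while the controls were 0.61 apart and enclosed both. Its change was -0.17 ± 0.21 (SE), and 0.14 without control 2. The signal was near the lower quartile of each array, which was 5.08 to 5.13.

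The probe set shared by Isg15, the ubiquitin-like protein that is conjugated to other proteins during the response, and Gm9706 read 8.22 and 8.69 on the control arrays, 7.53 on starved 1 and 8.53 on starved 2. Starved 1 was the lowest array and starved 2 lay between the controls. With every probe set as the unit of the limma fit its change was -0.42 ± 0.34 (SE; adjusted p = 0.720). The gap between the starved arrays was 1.01, in the same direction as in the Ifit genes. The Isg15 promoter held 3 overlapping matches to the response element, written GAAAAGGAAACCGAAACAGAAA, which begin 78, 72 and 66 bases before the start.

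Irf7, the transcription factor that carries the amplifying loop of interferon production, read 8.16 and 8.24 on the control arrays, 8.20 on starved 1 and 8.56 on starved 2. Starved 1 lay between the controls and starved 2 above them. The change was 0.18 ± 0.15 (SE; limma, adjusted p = 0.731), and its 95% confidence interval ran from -0.20 to 0.56. Without starved 2 the change was 0.0055, and without starved 1 it was 0.36.

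Usp18 removes Isg15 from its targets and blocks signalling at the type I receptor. It read 8.55 and 8.76 on the control arrays, 9.34 on starved 1 and 9.90 on starved 2. Both starved livers lay clear of both controls. The means were 9.62 ± 0.40 (SD, n = 2) in starved and 8.65 ± 0.14 in control liver, a change of 0.97 ± 0.21 (SE) or 1.96-fold. It had the smallest p of the members and did not pass (limma, unadjusted p = 0.00393, adjusted p = 0.197), standing at rank 246 of 12393 genes. With any 1 array left out the change stayed between 0.69 and 1.25. The groups did not overlap in 2 of 7 members, Usp18 and Rsad2, against 42.2% of all genes, and both starved arrays lay above both controls in 21.4% of all genes.

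The starved arrays lay on opposite sides of both control arrays in 3 of 7 members, Ifit1, Ifit2 and Ifit3, against 12.7% of all genes, or 6.22% with starved 1 low and starved 2 high as here. The choice of these genes was made with that pattern in view, so the share is a description. In 5 of 7 members starved 2 exceeded starved 1 by at least 0.5, against 2.57% of all genes. The median difference between starved 2 and starved 1 was 0.93 over the members and 0.000463 over all genes. The controls differed less: control 2 exceeded control 1 in 6 of 7 members, where it did in 44.1% of all genes. The median difference between control 2 and control 1 was 0.20 over the members and -0.03 over all genes. Oasl2 alone of the 7 had a smaller gap between the starved arrays than between the controls.

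**Figure D2:**
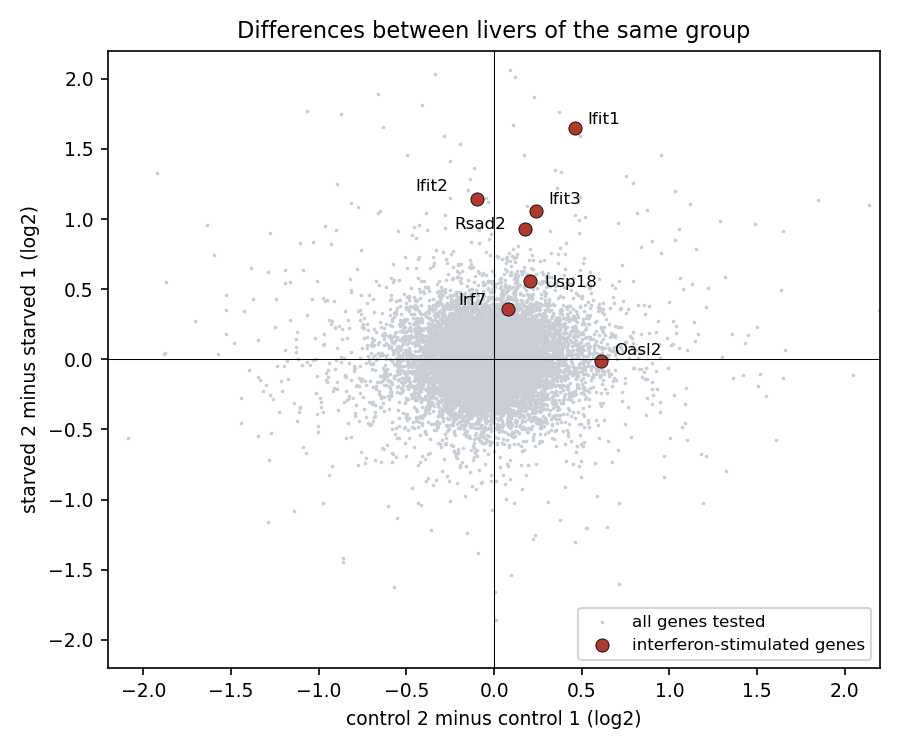
Difference between the starved arrays (vertical axis, log2) against the difference between the control arrays (horizontal axis, log2) for all genes tested (grey) and the 7 interferon-stimulated genes (red, named); 24 genes fall outside the limits of 2.2. Ifit1 lies highest of the members, at 1.65, and 6 of the 7 lie above the horizontal line at 0.

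Values of some cell type lists and of RNA integrity also differed between the starved livers, and their part in the members' gap was not tested. B cell markers read higher on starved 2 in 5 of 7 genes, with a median difference of 0.41 over the 7. Cd79a and Pax5 went the other way, by -0.25 and -0.09. The mean signal of the 7 was 6.19 on starved 2, against 5.83 on starved 1 and 5.82 to 5.85 in the controls. Kupffer and macrophage markers were higher on starved 2 in 11 of 12 genes, by a median of 0.16, and their mean was highest on control 2, at 9.77. Markers of plasmacytoid dendritic cells, which secrete type I interferon, differed by a median of 0.11 over 7 genes, with 4 of them below the lower quartile of the arrays. Monocyte and cholangiocyte markers differed by medians of 0.22 and 0.20. The medians were -0.02 for hepatocyte, -0.02 for T cell and 0.04 for NK cell markers. Across all 13 cell type lists the median difference ran from -0.19 for sinusoidal endothelium to 0.41 for B cells. The Gapdh gap was widest on starved 1 and narrowest on starved 2. The actin gap was also widest on starved 1, at 2.06, but on starved 2 it was 1.85, above the controls at 1.79 and 1.76.

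The rest of the interferon pathway was read from 7 lists of 123 measured genes outside the members. None passed the limma test over all genes, which 0.0646% of all genes passed. At an unadjusted p of 0.05, 3 were higher and 12 lower in starved liver, where 5.25% and 6.02% of all genes were. The median change was -0.06, and 0.019 without starved 1. Starved 2 exceeded starved 1 by at least 0.5 in 26 of 123 genes, or 21.1%, against 2.57% of all genes, and starved 1 exceeded starved 2 by that much in 1 gene, Jak1.

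Interferon ligands gave low signals. Their 9 measured genes read between 3.36 and 6.7, 7 of them with a mean below the lower quartile, and the median change was 0.05. Ifnb1, the ligand made first in many cells, read 4.82 and 5.18 on the control arrays and 5.14 and 5.15 on the starved arrays. Ifna5 had the smallest p, with 4.06 and 4.12 in control and 4.59 and 4.45 in starved liver (limma, adjusted p = 0.286), all of them low signals.

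Receptor chains and JAK-STAT genes had a median change of -0.03 over 10 genes. Ifnar2, a chain of the type I receptor, read 11.09 and 11.10 in control and 11.51 and 11.42 in starved liver, a change of 0.37 that did not pass (limma, adjusted p = 0.330). Irf9, the DNA-binding partner of the STATs, followed the Ifit order at a smaller scale, with controls of 8.16 and 7.98 between 7.83 on starved 1 and 8.25 on starved 2. Jak1, a kinase of the receptor, went the other way, from 9.49 on starved 1 to 8.93 on starved 2.

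Sensors and adaptors that start the response had a median change of -0.07 over 16 genes, and 13 of them read higher on starved 2. Zbp1, a sensor of Z-form nucleic acid, read 7.48 on starved 1 and 8.15 on starved 2, but its controls were as far apart, at 7.66 and 8.39. Ifih1, which encodes the RNA sensor MDA5, read 9.42 and 9.82 on the starved and 9.69 and 9.84 on the control arrays. Irf5 read 7.43 and 7.78 in control and 6.90 and 7.14 in starved liver, a change of -0.58 that did not pass (limma, adjusted p = 0.295).

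Negative regulators had a median change of 0.02 over 11 genes. Socs3, a feedback inhibitor of JAK kinases that also follows IL-6, had the widest spread. It read 9.0 and 10.03 in the controls and 8.11 and 9.31 in the starved livers, so that it varied within both groups. Of the ISG15 conjugation genes 3 were measured. The E2 enzyme Ube2l6 read 7.92 and 8.07 in control and 6.81 and 7.34 in starved liver, a change of -0.91 ± 0.20 (SE) that did not pass (limma, adjusted p = 0.197). That is the opposite direction to Usp18, which removes the same modifier. Uba7, the E1 enzyme, changed by -0.05.

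Other type I response genes had a median change of -0.03 over 46 genes. At an unadjusted p of 0.05, 1 was higher and 4, or 8.7%, lower, where 5.25% and 6.02% of all genes were. Leaving out 1 array moved that median to -0.05 (control 1), 0.03 (control 2), 0.05 (starved 1) or -0.17 (starved 2). Of these, 34 read higher on starved 2 than on starved 1, and 12 by at least 0.5. Rtp4, a receptor-transporting protein with antiviral action, read 8.82 and 9.18 in control liver, 8.49 on starved 1 and 9.71 on starved 2. Oas1a, which makes the activator of RNase L, read 7.88 and 8.36 in control liver, 8.11 on starved 1 and 9.23 on starved 2. Cmpk2, a nucleotide kinase, read 6.79 and 7.30 in control liver, 6.52 on starved 1 and 7.54 on starved 2. Ifi47 also had a wide starved gap, of 0.98, but its controls were 1.29 apart. In Rtp4 and Cmpk2 the starved livers again enclosed both controls. This held with starved 1 low in 11 of 46 genes of this list, against 6.22% of all genes. The other 9, named after their values were seen, were Mx1, Oas1b, Oas3, Oasl1, Parp9, Trim21, Epsti1, Cxcl10 and Ddx60. The margin was small in some, as in Trim21, with 8.21 and 8.55 in control and 8.19 and 8.58 in starved liver.

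In 17 of 46 genes of this list, or 37.0%, the gap between the group means was wider than that between the starved livers, against 48.2% of all genes. Ifitm3, a membrane protein that blocks viral entry, read 12.97 and 13.33 in control and 12.09 and 12.63 in starved liver. Its relative Ifitm2 read 11.11 and 11.59 in control and 10.62 and 10.56 in starved liver. The changes of -0.79 and -0.76 did not pass (limma, adjusted p = 0.291 and 0.235), and in both genes the groups did not overlap. Over this list 10 of 46 genes had both starved arrays below both controls, or 21.7%, close to 20.9% of all genes.

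Interferon gamma and antigen presentation genes had a median change of -0.25 over 28 genes. None passed over all genes. At an unadjusted p of 0.05, 6 of 28 were lower, or 21.4%, and 0 higher. Over all genes 6.02% were lower and 5.25% higher at that p. Both starved arrays lay below both controls in 10 of 28 genes, against 20.9% of all genes. The list's median was -0.16 without control 1 and -0.10 without starved 1. Control 1 was the highest array by at least 0.5 in 5 of 28 genes, named after their values were seen: Gbp2b and the class II presentation genes H2-Aa, H2-Ab1, H2-Eb1 and Cd74. H2-Aa, a chain of the class II molecule, read 10.64 on control 1 and 8.77 on control 2, against 9.34 and 9.90 in the starved livers. Acute phase genes, the liver proteins that follow inflammation, also had lower values in starved liver. Their median change was -0.49 over 24 genes, and 0 passed the test, which 0.0646% of all genes passed. Both starved arrays lay below both controls in 15 of 24, or 62.5%, against 20.9% of all genes. At an unadjusted p of 0.05, 7 of 24 were lower, or 29.2%, against 6.02% of all genes. Without control 2, on which they stood apart, their median was -0.19. Without control 1, which leaves control 2 as the only control, it was -0.73. The part of either pattern in the antigen presentation values was not tested. Tap2, a subunit of the peptide transporter, read 7.74 and 7.83 in control and 7.0 and 7.09 in starved liver, a change of -0.74 ± 0.12 (SE; limma, adjusted p = 0.113). Psmb10, a subunit of the immunoproteasome, read 9.76 and 9.72 in control and 8.78 and 9.08 in starved liver, a change of -0.81 ± 0.14 (SE; limma, adjusted p = 0.141). These are the opposite direction to Usp18 and Rsad2. The guanylate-binding protein gene Gbp6 had controls of 8.45 and 7.82 between 6.83 on starved 1 and 8.49 on starved 2. Starved 2 was barely above control 1, and the change was -0.48. Of the other wide starved gaps in this list, Cxcl11 also had its controls between the starved livers. Gbp7 had both starved livers below both controls. The controls of Irgm2 were 1.15 apart and its starved livers 0.78.

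**Figure D3:**
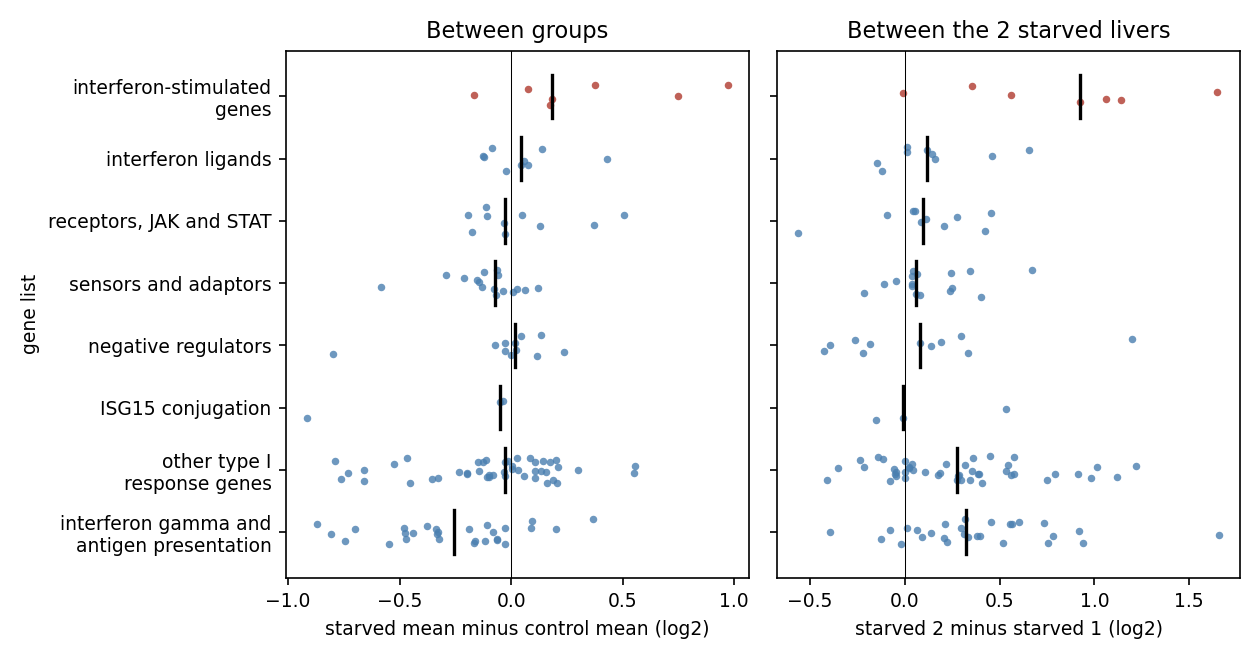
Left, change between starved and control means (log2) of each gene; right, starved 2 minus starved 1 (log2); rows are the interferon-stimulated genes (red) and 7 lists of the pathway (blue), each point is 1 gene and each black bar the list median. On the right the medians are 0.93 for the interferon-stimulated genes, 0.28 for other type I response genes and 0.32 for interferon gamma and antigen presentation, and lie between -0.01 and 0.12 for the other 5 lists.

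Genes outside the members were ranked by likeness to their mean profile over the 4 arrays, each gene centred on its own mean, as the root mean square distance in log2 units. The mean profile of the members was -0.29 on control 1, -0.05 on control 2, -0.24 on starved 1 and 0.57 on starved 2. The nearest gene was Tnfaip8l1, of the TNFAIP8 family, at a distance of 0.05, followed by Gbp3, a guanylate-binding protein, at 0.08 and Dnase2a, a DNase of lysosomes, at 0.10. Gbp3 read 7.53 and 7.54 in control liver, 7.54 on starved 1 and 8.27 on starved 2, and was the 1 gene of the 10 nearest that the pathway lists hold. The other 7 were Sobp, Snhg11, Psat1, Rasl11b, Rhpn2, Qpct and Dleu2, at up to 0.12. Of the members themselves Ifit3 lay closest to their mean, at 0.12, and Oasl2 farthest, at 0.41.

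**Figure D4:**
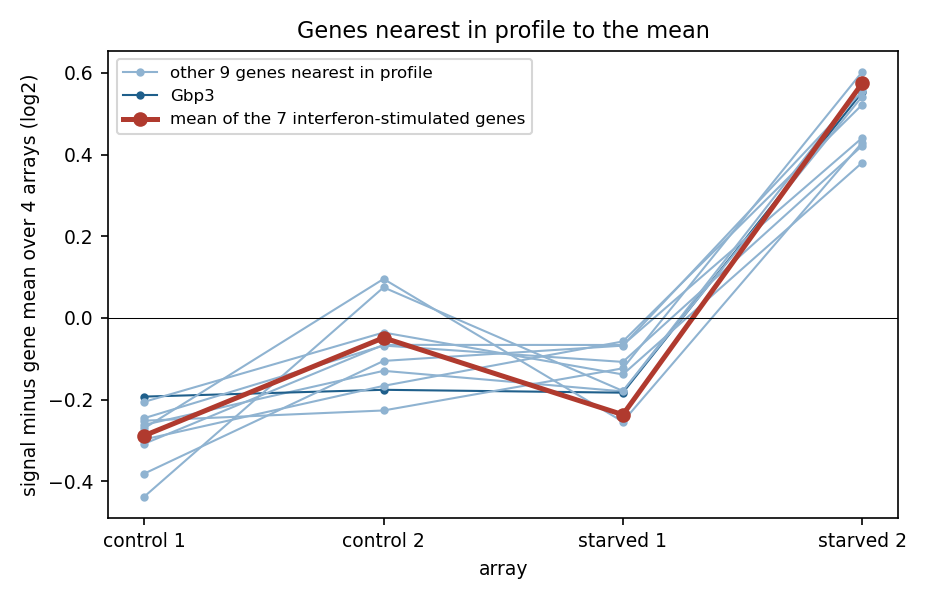
Signal minus the gene's own mean over the 4 arrays (log2, vertical axis) for the mean of the 7 interferon-stimulated genes (red) and the 10 genes nearest to it (blue, Gbp3 darker); lines join the values of 1 gene and imply no order of arrays. Each of the 10 genes is highest on starved 2, between 0.38 and 0.60 above its own mean. That follows from their choice, as the mean profile peaks there.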

How the data were processed

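Each array measured total liver RNA of 1 mouse. The deposited values are log2 signals. The authors used RMA and affy, per the submitters' processing notes, and the sources used here give neither versions nor whether the 4 arrays were normalized together. Because RMA equalises the arrays' distributions, a shift shared by every transcript is hidden, and no detection calls were used. Of 22690 probe sets, 64 controls were left out, 20380 had 1 gene symbol, 691 several and 1555 none. Symbols were updated through Entrez identifiers in RefSeq (GRCm38.p6), which matched 20351. Each gene was represented by its brightest probe set, by the mean over the 4 arrays.

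The comparison used limma 3.58.1 (lmFit, eBayes; R 4.3.3), two-sided, with no covariate and Benjamini-Hochberg adjustment over 12393 genes at 0.05. The fit was tested on simulated data in which every added change was larger than that of any member. It therefore does not show how often changes of the members' size pass. Named genes are the members, up to 4 per pathway list by p and up to 4 by the gap between the starved arrays, and the 10 genes nearest in profile. Members and lists were chosen with earlier results of these data known, so neither is independent evidence. The samples share replicate numbers, but deviations of same-numbered arrays correlated at 0.02 over genes, and the numbers were not taken as pairs. Promoters were searched for GAAANNGAAA in the 250 bases before each RefSeq start, and 8 of 9 members had an entry. Figures were drawn with matplotlib 3.10.9. The precision is limited by the number of arrays.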

Additional observations from a re-analysis of the deposited data

How the results depend on the processing

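No member passed the limma test under any alternative run: another median or quantile normalization, a filter dropping the dimmest 40% of genes (which removed Ifit2 and Oasl2), the mean of all probe sets, every probe set as the unit, no _x_at or _s_at probe sets, trend and robust eBayes, the replicate number as a block, and each array left out. The count of members stayed at 0, and so did that of other pathway genes. The lowest adjusted p was 0.167, for Usp18 after the filter, within a range of 0.167 to 0.356 over its alternatives. With the replicate block the count over all genes went from 8 to 0, and it was 0 after a further quantile normalization, 13 with every probe set as the unit and 27 with trend and robust eBayes. With 1 array left out it ran from 2 to 59. The median change of the members ran from -0.16 without starved 2 to 0.71 without starved 1, and that of the other pathway genes from -0.16 without starved 2 to 0.019 without starved 1. Of 75 member values under the alternatives 4 turned their sign: Ifit1 ran from -0.45 to 1.20, Ifit2 from -0.50 to 0.64 and Ifit3 from -0.35 to 0.71 with an array left out, and Oasl2 from -0.47 to 0.14. With every probe set as the unit the median change over the members' probe sets was 0.37, and adding the probe set shared by Isg15 to these, an alternative chosen after seeing the data, lowered it to 0.28. The gap between the starved arrays cannot be had with 1 of them left out. The number of arrays limits all of these values.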
